A study of Mus musculus with 141 samples.

Results

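Kidney gene expression was described across 47 strains of the Collaborative Cross (CC), a panel of recombinant inbred mouse lines bred from 8 founder strains. The 47 kidney libraries, of 141 libraries in the series, were chosen by their tissue label, and the 47 liver and 47 lung libraries of the same mice were used only for comparison. Each strain was represented by 1 male aged 8 to 12 weeks, held in mesh chambers with clean air for 6 hours a day on weekdays over 2 weeks. All mice received the same wafer diet under 12 hours of light and 12 hours of dark. Because each kidney value comes from 1 mouse and 1 library, strain, mouse and library cannot be told apart, and variation across strains below is variation across these 47 kidneys.

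In an inbred panel nearly all alleles are fixed within a strain, although some loci of the CC still segregate. A difference at one fixed locus gives each strain one of a few expression levels, whereas a difference that acts through many loci or through the state of the animal gives graded levels. Most of the kidney's RNA comes from the proximal tubule, which reabsorbs filtered solutes, handles drugs and steroids and differs between the sexes under androgens. Smaller shares come from the loop of Henle, the collecting duct, the glomerulus, vessels, fibroblasts, resident macrophages and surrounding fat. In whole tissue, a lower level can reflect fewer cells of a type or less RNA per cell, and these cannot be told apart.

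Total expected counts per kidney ranged from 3046695 to 15028553 (median 8245850). Ribosomal precursor RNA, listed as Rn45s, took between 0.146% and 63.1% of them (median 25.4%), and the counts outside Rn45s, Lars2 and Mir6236 ranged from 1189936 to 13838154 (median 4471996). Values are given as CPM, counts scaled to a common library size after TMM scaling (a trimmed mean of log ratios between libraries), so that CPM compare strains for one gene and not genes of different length. A count of 3 corresponded to between 0.125 and 1.30 CPM, depending on the kidney, and values at or below that are not resolved, which covers counting error only. The identity of the tissue was checked with 15 proximal tubule genes, of which 14 passed the expression filter. Their summed level, a large part of it from the abundant gene Kap, lay between 18152 and 55146 CPM in every kidney. One kidney stood apart: the median correlation of strain CC020 with the other kidneys was 0.900, against 0.923 for the next lowest, CC004. Its results are given below beside the groups they touch.

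Of 24423 genes, 10439 exceeded 1 CPM in at least 24 of the 47 kidneys. Variation was measured by the coefficient of variation (CV), the SD over strains divided by the mean. The median CV was 0.249, with quartiles of 0.172 and 0.386 and a range from 0.0633 to 4.46. The CV exceeded 0.5 for 1376 genes (13.2%) and 1 for 224, while 180 genes had a CV under 0.1. Counting error alone gives a median CV of 0.166 for genes of 5 to 6 CPM and of 0.0294 for genes of at least 100 CPM, so the ranking of variable genes was restricted to the 7642 genes with a mean of at least 5 CPM. For 29 of the 10439 genes the CV was no larger than its counting part.

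**Figure D1:**
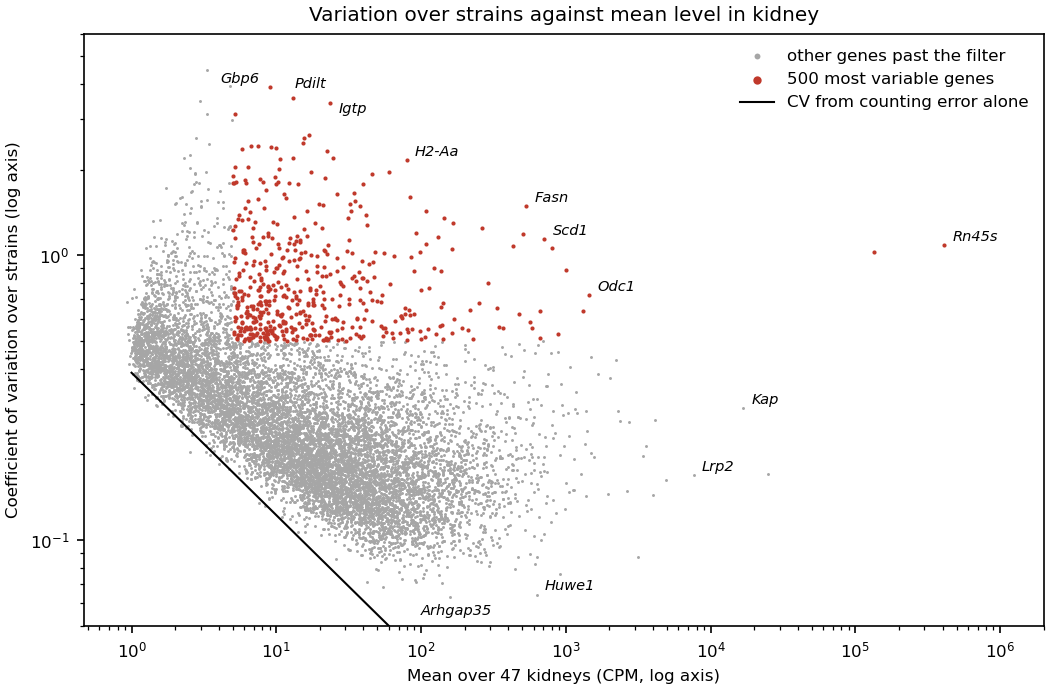
Coefficient of variation over 47 kidneys (y axis, log) against mean level in CPM (x axis, log) for the 10439 genes that passed the filter, with the 500 most variable genes of at least 5 CPM in red and the CV from counting error at the mean count as a line. Gbp6, Pdilt and Igtp lie at the top, Huwe1 and Arhgap35 at the bottom, and Kap and Lrp2, abundant proximal tubule genes, lie well below the red genes.

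The most variable genes were of different kinds: interferon-induced GTPases and antigen presentation genes with an extreme level in one strain, enzymes and secreted proteins with high levels in a few strains, and lipogenic genes with a graded distribution. Gbp6, an interferon-induced guanylate-binding protein (chr5:105699723-105722718 on NCBIM37), had the largest CV among genes of at least 5 CPM at 3.89. Its level was 0.793 CPM in the lowest kidney, 3.42 CPM at the median and 246 CPM in strain CC016, 72.0 times the median. The second highest strain reached only 11.6 CPM, and the CV without CC016 was 0.651. Igtp, an immunity-related GTPase (chr11:58013058-58021093), showed the same shape, from 4.26 CPM to 566 CPM in CC016, with a second highest value of 30.5 CPM and a CV of 3.43 that was 0.474 without CC016. Both distributions therefore consisted of 1 strain set against 46 strains with moderate spread.

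Other top genes were high in several strains. Pdilt, a protein disulfide isomerase-like protein known from testis (chr7:126630101-126666996), had a CV of 3.56 and ran from 0.907 CPM through a median of 3.36 CPM to 114 CPM in CC002 and 305 CPM in CC029. Hdc, the enzyme that makes histamine from histidine (chr2:126419403-126445035), had a CV of 2.65, a median of 5.63 CPM and 4 strains above 70 CPM, namely CC012 at 281, CC021 at 100.2, CC062 at 85.4 and CC044 at 73.1 CPM. The next highest strain had 11.6 CPM. Aox1, an aldehyde oxidase of drug and aldehyde metabolism (chr1:58086775-58163257), had a CV of 2.49, a median of 3.43 CPM and also 4 strains set apart, CC024 at 205, CC030 at 129, CC040 at 108 and CC015 at 78.3 CPM, while the next highest strain had 22.5 CPM. For Hdc and Aox1 no strain was high in both genes. Susd5, which encodes a membrane protein (chr9:113966472-114007851), stood between 77.1 and 108 CPM in CC068, CC028 and CC031 against a median of 1.32 CPM, with a CV of 2.39. Cyp2d12, a member of a cytochrome P450 family with near-identical copies (chr15:82385538-82389843), had a CV of 2.19, a median of 7.53 CPM and its highest levels in CC017 (284 CPM), CC012 (210 CPM) and CC001 (154 CPM).

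Among the 1127 genes with a mean of at least 100 CPM, Fasn, the fatty acid synthase (chr11:120667254-120685492), was the most variable with a CV of 1.49. It ranged from 109 CPM through a median of 294 CPM to 3723 CPM in CC059 and 4335 CPM in CC038. Scd1, the stearoyl-CoA desaturase, had a CV of 1.14 and its highest levels in the same strains, 3711 CPM in CC059 and 4258 CPM in CC038, against a median of 485 CPM. Aldh1a1, which oxidises retinal to retinoic acid (chr19:20676451-20717952), was spread widely rather than set apart in one strain: it ran from 7.54 through 95.0 to 914 CPM, the second highest strain had 851 CPM, and its CV of 1.30 was 1.24 without the highest strain. H2-K1 and B2m, the heavy and light chains of class I histocompatibility molecules, were dominated by CC016. H2-K1 ranged from 31.5 through 81.8 to 1116 CPM and its CV of 1.43 was 0.491 without CC016, and B2m ranged from 94.9 through 205 to 2403 CPM with a CV of 1.25 that was 0.356 without CC016. Pigr, the receptor that carries polymeric immunoglobulin across epithelia, was also highest in CC016 at 3513 CPM (median 330 CPM), but 2059 CPM in CC055, the second highest strain, left its CV at 0.919 without CC016.

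The 10 least variable genes of all differed little between any of the kidneys. Arhgap35, a GTPase-activating protein, had the smallest CV (0.0633), with 142 CPM in the lowest kidney, 156 at the median and 183 in the highest. Huwe1, a large ubiquitin ligase (chrX:148235350-148369960), had a CV of 0.0644 and a range from 537 through 623 to 730 CPM. The others of the lowest 10 were Mta2 of the NuRD complex (CV 0.0684), the splicing factor Sf3b2 (0.0708), the microRNA-processing enzyme Dicer1 (0.0713), the m6A reader Ythdf2 (0.0713), and Kdm2a, Tnpo3, Ankfy1 and Csnk1a1, none with a CV over 0.08. In each of those whose values are given, the highest kidney was less than 1.3 times the median.

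Groups of genes chosen for their function differed in the same way. All 24 spliceosome genes were in the files, 21 passed the filter, their median CV was 0.149 and none was among the 500 most variable genes. The median CV was 0.156 for the tricarboxylic acid cycle, 0.159 for the proteasome core and base, 0.162 for cytosolic ribosomal proteins, 0.171 for shared V-ATPase subunits and 0.184 for oxidative phosphorylation, all under the median of 0.249 over all genes. Single members lay above it in each of these lists. Cox7c of the respiratory chain had a CV of 1.43 and the ribosomal protein gene Rpl37 one of 0.730, and both have near-identical copies elsewhere in the genome, so that their counts are uncertain where only uniquely aligned reads were counted. Others were Atp6v1h of the V-ATPase (0.480), Suclg2 of the tricarboxylic acid cycle (0.469), the proteasome subunit Psma7 (0.425) and the splicing factor Sf3a2 (0.376). Genes often used as reference genes had a median CV of 0.194, from 0.135 for Ppia to 1.25 for B2m, and B2m and Gusb were among the 500 most variable. Proximal tubule genes lay near the overall median at 0.254 and none of 14 was among the 500.

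At the other end, 10 of 12 class I and class II histocompatibility genes that passed the filter were among the 500 most variable, where the share over all 7642 ranked genes is 6.54%, and their median CV was 1.57. The median CV was 1.33 for hepatocyte genes, 1.03 for adipocyte genes, 0.938 for macrophage genes, 0.891 for tubule injury genes and 0.684 for fibroblast genes. Lcn2, the secreted injury marker neutrophil gelatinase-associated lipocalin, ran from 0.191 through 1.46 to 49.5 CPM in CC020, where the next strain had 9.46 CPM. The interferon response list had a median CV of 0.569, and 6 of its 12 genes were among the 500. Of fasting and PPARA targets 8 of 13 were among the 500, with a median CV of 0.539: Cyp4a14, a fatty acid hydroxylase, ran from 0.384 through 4.96 to 183 CPM. The androgen-responsive and sex-biased list, in these males, had a median CV of 0.509 with 8 of 19 among the 500.

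A part of the variation was not graded but fell into 2 levels. Splitting the 47 CPM values of a gene, not on a log scale, into 2 clusters set a single strain apart for 170 of the 7642 genes. Among them were 87 of the 500 most variable. The 2 levels themselves were defined by the same split of log2 CPM. For 33 genes (0.432%), chosen after their values were seen, it explained over 80% of the variance. It also left at least 5 strains on each side and had an empty gap of at least 2-fold. Of these, 24 were among the 500 most variable genes. Coordinates of these genes are on NCBIM37.

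**Figure D2:**
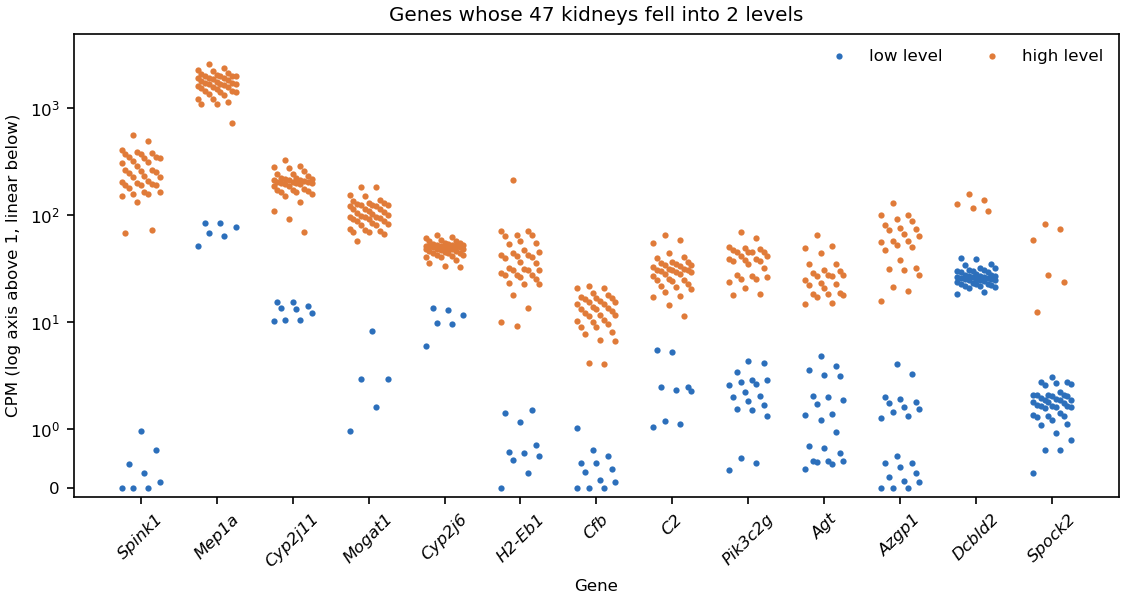
Level in each of 47 kidneys (y axis, CPM, log above 1 and linear below) for 13 genes with 2 levels (x axis), coloured by level. An empty gap separates the levels in each gene, as for Mep1a, whose 6 low kidneys lie between 51.8 and 84.7 CPM and whose 41 high kidneys lie between 734 and 2623 CPM.

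Mep1a, the alpha subunit of the brush border protease meprin (chr17:43611273-43639761), was low in 6 strains (51.8 to 84.7 CPM, median 72.9) and high in 41 (734 to 2623 CPM, median 1707). Spink1, a secreted trypsin inhibitor, was at 0 to 0.959 CPM in 8 strains, 6 of them at or under 3 counts, and at 68.6 to 561 CPM in 39. Cyp2j11, an arachidonic acid epoxygenase (chr4:95961199-96015353), was low in 9 strains (10.3 to 15.4 CPM) and high in 38 (70.1 to 326 CPM). Its neighbour Cyp2j6 (chr4:96182829-96220352) was low in 6 strains (5.91 to 13.4 CPM) and high in 41 (32.9 to 64.9 CPM), and no strain was low for both. Mogat1, a monoacylglycerol acyltransferase (chr1:78507566-78534748), was low in 5 strains (0.953 to 8.26 CPM, against 57.7 to 183 CPM). In these genes the low level was the rarer one, whereas Dcbld2, a membrane receptor-like protein (chr16:58408556-58469840), was high in 5 strains (110 to 158 CPM) and low in 42 (18.2 to 39.2 CPM).

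Cfb and C2, which encode the related proteases of the alternative and the classical complement pathway, lie 86 bases apart on chromosome 17 (chr17:34993319-34999463 and chr17:34999549-35035397). Cfb was low in 12 strains (up to about 1 CPM, against 4.02 to 21.5 CPM) and C2 in 9 (1.03 to 5.44 CPM, against 11.4 to 65.7 CPM), and all 9 were among the 12. Of the 6 strains low for Mep1a, over 8 Mb away, 5 were low for both. H2-Eb1, a class II beta chain (chr17:34442828-34453144), was low in 10 strains (a median of 0.595 CPM, against 9.09 to 215 CPM). For Agt (angiotensinogen) and Azgp1 (a secreted lipid-mobilising glycoprotein) the strains divided almost evenly, with 22 low and 25 high each, and for Pik3c2g, a class II phosphoinositide 3-kinase, 19 were low (0.294 to 4.29 CPM) and 28 high (17.8 to 69.2 CPM).

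The same split was looked for in the other tissues, whose values had played no part in choosing the genes, by taking as many strains from the same end of the liver or lung distribution. Of 22 two-level genes that passed the filter in liver, 10 had all or all but 1 strain of the rarer level in common, as had 8 of 19 in lung. H2-Eb1 shared 9 of its 10 low strains with liver and 9 with lung, and Cyp2j6 all 6 with liver and 5 with lung. For others the levels were those of the kidney: Mep1a shared 1 of 6 low strains with liver and 1 with lung, C2 shared 1 of 9 with liver and 0 with lung, and Dcbld2 shared 0 of 5 high strains with either. In all, 6 of the genes in liver and 3 in lung shared fewer than 1 strain in 2. No test was made of these overlaps.

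Co-variation was described among the 500 most variable genes of at least 5 CPM, whose last member had a CV of 0.5004 and whose next gene had 0.4995. Of their 124750 pairs, 610 (0.489%) had a Spearman correlation of at least 0.6 over the 47 kidneys, 12 had one of -0.6 or lower, and the median was 0.00601. Strong co-variation was therefore rare and mainly positive. Average linkage on 1 minus rho, cut at 0.5, gave 11 groups of at least 5 genes that held 111 genes, and 389 genes were in no group. All correlations within and between groups are descriptions of values that share 47 libraries and their depth. The level of a group in a strain is the mean over its genes of log2 CPM minus the median over strains.

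**Figure D3:**
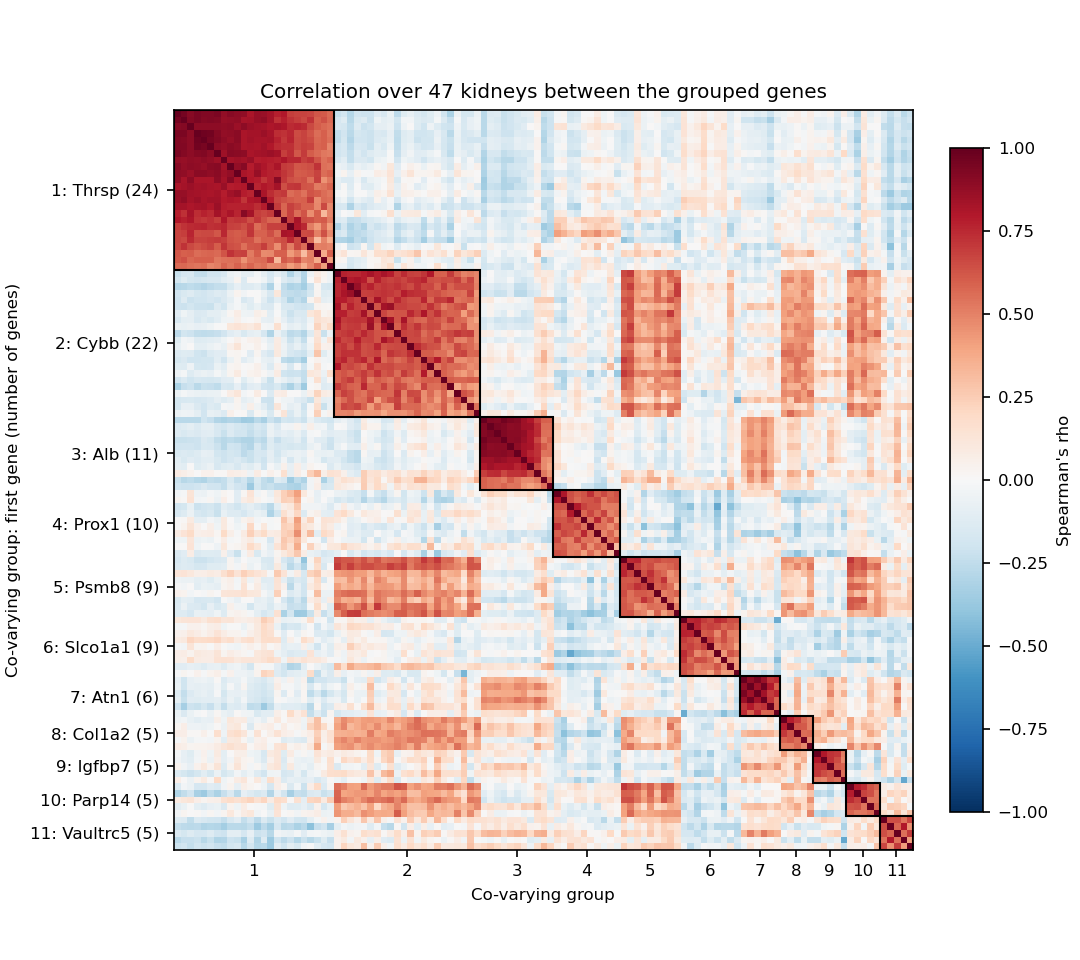
Spearman's rho over 47 kidneys for all pairs of the 111 genes in the 11 co-varying groups, in the order of the groups on both axes, with boxes around each group. The blocks of the Cybb, Psmb8, Col1a2 and Parp14 groups (2, 5, 8 and 10) are also correlated with one another, with a rho of 0.673 between the levels of the Cybb and Psmb8 groups, while the Thrsp group (1) stands by itself.

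**Figure D4:**
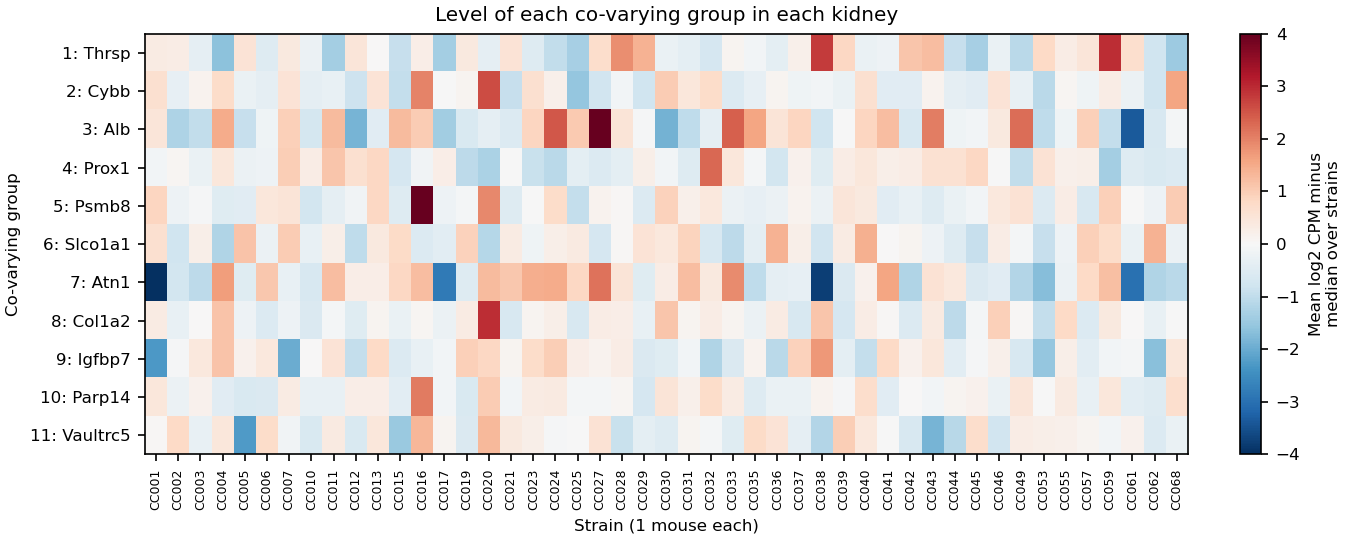
Level of each group (rows) in each of the 47 kidneys (columns), as mean log2 CPM minus the median over strains, with the colour scale ending at -4 and 4. In several groups 1 kidney lies above all others, as CC027 in the Alb group (4.16), CC016 in the Psmb8 group (4.01) and CC020 in the Col1a2 group (2.95). The Alb group is also spread over the other kidneys, from 2.48 in CC024 to -3.37 in CC061.

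The largest group held 24 genes led by Thrsp, Acaca, Fabp4 and Cidea, with a mean rho of 0.715. Among its genes, Acaca, Acacb, Fasn, Elovl6 and Scd1 synthesise, elongate and desaturate fatty acids, Thrsp and Pnpla3 are lipogenic genes, Fabp4, Adipoq and Plin4 are genes of fat cells, and Ucp1, Cidea and Cox8b are known from brown fat. The group was highest in CC059 (2.95 log2 units above the median), CC038 (2.81) and CC028 (1.86), and lowest in CC004 (-1.63). Ucp1, the mitochondrial uncoupling protein, was at 482 CPM in CC059 and 309 CPM in CC038, with a median of 19.4 CPM and 0 in the lowest kidney. Thrsp ran from 1.66 through a median of 18.9 to 240 CPM in CC059.

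Of the 8 adipocyte markers, 3 were in the group, and these were the only ones that passed the filter. The summed level of the other 5 had a rho of 0.742 with the level of the group. It was 9.53 CPM in CC059 against a median of 1.43 CPM, which is near the floor of 3 counts. The part of fat attached to the kidney in these values was not tested. In the lung of the same mouse CC059 again ranked first for the group, with the highest level for 16 of 24 genes, whereas in liver it ranked 9th of 47. CC038, with the second highest level in kidney, ranked 24th in lung and 30th in liver. Of the group's genes, 0 of 17 tested correlated positively between kidney and liver and 7 of 24 between kidney and lung, where 23.5% and 16.9% of all genes tested did (permutation test on rank inverse normal values, q 0.1). Fasn itself had an r of -0.25 with liver (rho -0.24, permutation p = 0.0842 and 0.110, q = 0.224, r without the 2 strains farthest from the median -0.31).

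A second group of 22 genes was led by Cybb, Nckap1l, Dock2 and Arhgap30, all genes of blood-derived cells, with a mean rho of 0.626. It held C1qa, C1qb and C1qc of complement C1, the macrophage genes Adgre1, Lyz2 and Mpeg1, and Cd74, H2-Aa, H2-Ab1, H2-DMa and H2-Eb1 of class II antigen presentation. CC020 was highest (2.61), followed by CC016 (1.98) and CC068 (1.59). Cybb, the catalytic subunit of the phagocyte oxidase, had 3.89 CPM in the lowest kidney, 8.89 at the median and 57.7 in CC020. H2-Aa, a class II alpha chain, ran from 20.5 through 48.2 to 1197 CPM in CC016, and Cd74, H2-Ab1 and H2-DMa were also highest in that kidney. H2-Eb1, in contrast, was highest in CC020 at 215 CPM and had 27.4 CPM in CC016, below its median of 30.5 CPM. Of the 8 macrophage markers, 5 were in the group, and the other 3 summed to 127 CPM in its highest kidney against a median of 63.5 CPM.

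The kidney of CC020 differed further. The 6 fibroblast markers summed to 889 CPM there (median 108 CPM). Of these, Col1a1, Col1a2 and Col3a1 belong to the collagen group described next, and the other 3 summed to 11.7 CPM (median 4.76 CPM). The 8 macrophage markers summed to 457 CPM in CC020 (median 101 CPM). The T and NK cell markers, of which none passed the filter, summed to 21.6 CPM (median 1.81 CPM). The group of Col1a2, Col3a1, Col1a1, Col15a1 and Thbs2, genes of the collagen matrix, was highest there for all 5 genes, with a level of 2.95. Col1a1 ran from 2.58 through 7.66 to 155 CPM in CC020, and the next strain had 28.7 CPM. When the groups were rebuilt without CC020, 18 of the 22 genes of the Cybb group stayed together, and the collagen genes no longer formed a group of at least 5 genes. The markers of several other cell types were lowest of all kidneys there: the proximal tubule markers summed to 18152 CPM (median 38800 CPM), those of the thick ascending limb to 102 CPM (median 522 CPM), of the intercalated cells to 61.6 CPM (median 146 CPM), of the inner medulla and thin limb to 269 CPM (median 577 CPM) and of the endothelium to 243 CPM (median 339 CPM). Of the 10 inner medulla and thin limb markers, 3 passed the filter and 2 averaged at least 5 CPM, so their sum rested on few genes. Juxtaglomerular and mural cell markers, in contrast, were the highest of all kidneys in CC020, at 263 CPM (median 135 CPM). The part of cell composition in the levels of all these markers was not tested. In all, CC020 was the single high strain for 68 genes, CC016 for 32, CC032 for 28, CC027 for 12 and CC062 for 6. CC020 had 1319259 counts outside Rn45s, Lars2 and Mir6236, CC016 had 4307064 and CC027 had 1235623, near the lowest of all kidneys.

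The level of the Cybb group in CC020 was not shared by the other tissues of that mouse, where it ranked 9th in liver and 13th in lung. CC016 was highest in liver for 20 of the 22 genes. Over all strains, 18 of 22 genes correlated positively with liver and 18 of 22 with lung, against the 23.5% and 16.9% of all genes.

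The group of Psmb8, Nlrc5, Gbp2, Igtp, Gbp6, Fgl2, Irgm2, Vcam1 and Wdfy4 had a mean rho of 0.591. Psmb8 is a subunit of the immunoproteasome, Nlrc5 the transactivator of class I genes, and Gbp2, Gbp6, Igtp and Irgm2 GTPases that act against intracellular pathogens. A smaller group of Parp14, Ifit1, Gbp9, Oasl2 and Herc6 (mean rho 0.622) included Ifit1 and Oasl2, known as interferon-induced genes. The levels of these groups had a rho of 0.678 with each other. Interferons act through sequences in promoters, the interferon-stimulated response element (ISRE) for type I interferon and the gamma-activated site (GAS) for interferon gamma. Promoters of 300 bases (250 before the start and 50 from it on, RefSeq, GRCm38.p6) were found for 6 of the 9 and 3 of the 5 genes, and were searched on both strands for the letters GAAANNGAAA (ISRE) and TTCNNNGAA (GAS). The promoters of 4 genes with a match and their highest level in CC016 are printed below with that of Ifit1, 5′ to 3′ in the direction of the gene, because they show where in the promoter the matches lie. Every match is in capitals.

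Igtp, chr11:58199306-58199605 (+ strand): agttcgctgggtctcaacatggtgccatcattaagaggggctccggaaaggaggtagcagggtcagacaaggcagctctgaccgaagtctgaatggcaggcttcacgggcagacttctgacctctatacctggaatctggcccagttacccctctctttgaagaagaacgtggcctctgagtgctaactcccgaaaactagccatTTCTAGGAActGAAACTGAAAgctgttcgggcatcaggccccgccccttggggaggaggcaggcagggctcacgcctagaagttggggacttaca
Irgm2, chr11:58214727-58215026 (+ strand): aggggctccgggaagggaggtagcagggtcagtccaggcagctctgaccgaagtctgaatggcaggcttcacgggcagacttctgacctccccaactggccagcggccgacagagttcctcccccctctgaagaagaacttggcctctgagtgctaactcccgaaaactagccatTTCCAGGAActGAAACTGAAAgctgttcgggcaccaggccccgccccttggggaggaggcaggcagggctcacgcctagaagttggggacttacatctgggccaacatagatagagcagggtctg
Gbp2, chr3:142620413-142620712 (+ strand): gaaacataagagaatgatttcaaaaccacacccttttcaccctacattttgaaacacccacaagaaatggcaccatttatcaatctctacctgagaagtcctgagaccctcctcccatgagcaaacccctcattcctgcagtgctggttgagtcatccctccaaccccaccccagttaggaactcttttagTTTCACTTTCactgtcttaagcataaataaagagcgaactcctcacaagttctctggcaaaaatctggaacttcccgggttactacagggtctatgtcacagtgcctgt
Psmb8, chr17:34197945-34198244 (+ strand): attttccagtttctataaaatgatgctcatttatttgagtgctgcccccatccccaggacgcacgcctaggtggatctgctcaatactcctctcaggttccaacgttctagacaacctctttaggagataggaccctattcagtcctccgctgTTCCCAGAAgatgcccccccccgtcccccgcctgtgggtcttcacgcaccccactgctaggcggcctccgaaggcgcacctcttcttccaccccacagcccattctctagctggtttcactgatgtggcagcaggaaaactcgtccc
Ifit1, chr19:34640639-34640938 (+ strand): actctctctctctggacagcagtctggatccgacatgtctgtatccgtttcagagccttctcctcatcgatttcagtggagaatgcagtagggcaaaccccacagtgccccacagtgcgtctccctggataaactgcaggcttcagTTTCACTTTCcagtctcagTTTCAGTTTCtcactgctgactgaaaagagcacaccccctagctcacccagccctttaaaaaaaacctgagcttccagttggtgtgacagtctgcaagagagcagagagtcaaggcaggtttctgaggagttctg

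An ISRE match was in 3 of the 6 promoters of the Psmb8 group (Gbp2, Igtp and Irgm2), and a GAS match in 4 (Psmb8, Igtp, Irgm2 and Fgl2). Over 27025 promoters of the same length the shares were 3.49% for ISRE and 8.47% for GAS. In Igtp and Irgm2, neighbours on chromosome 11, the GAS match (first base at -45 and -75 from the start) was followed by the ISRE match (-34 and -64) with 2 bases between them. The promoters of these 2 genes share most of their letters. Their matches are therefore not separate cases in the counts above. The ISRE match of Gbp2 began at -59 and the GAS match of Psmb8 at -97. Of the Parp14 group, Ifit1 held 2 ISRE matches and neither Oasl2 nor Herc6 held a match of either kind. A match describes letters in a window and not a bound site.

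CC016 stood far above all other strains in the Psmb8 group, with a level of 4.01 against 1.92 in CC020. The same mouse was highest in liver (level 3.48) and lung (level 2.25), and it had the highest value for 6 of the 9 genes in kidney, 9 in liver and 6 in lung. Gbp6 was at 246 CPM in its kidney, 94.5 CPM in its liver and 176 CPM in its lung, against medians of 3.42, 5.81 and 10.3 CPM. Nlrc5 was at 100.3 CPM in its kidney (median 4.81), 84.9 CPM in its liver and 282 CPM in its lung. These values come from 3 libraries of 1 mouse. Immune cell markers were also high in its kidney: macrophage markers summed to 216 CPM (median 101 CPM, rank 3), T and NK cell markers to 9.04 CPM (median 1.81 CPM, rank 2) and B and plasma cell markers to 226 CPM (median 21.1 CPM, rank 5). Cd74, a class II gene of the Cybb group, is on the B and plasma cell list and was at 203 CPM in CC016, most of that sum. Over all strains the rho of the macrophage, T and NK cell, and B and plasma cell markers with the level of the group was 0.595, 0.541 and 0.490. Fibroblast markers, at 98.0 CPM in CC016, were below their median of 108 CPM. The part of immune cells in the levels of the group was not tested. When the groups were rebuilt without CC016, 5 of the 9 genes of the Psmb8 group stayed together, inside a group of 27 that also held 21 genes of the Cybb group, and the genes of the Parp14 group were in no group.

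**Figure D5:**
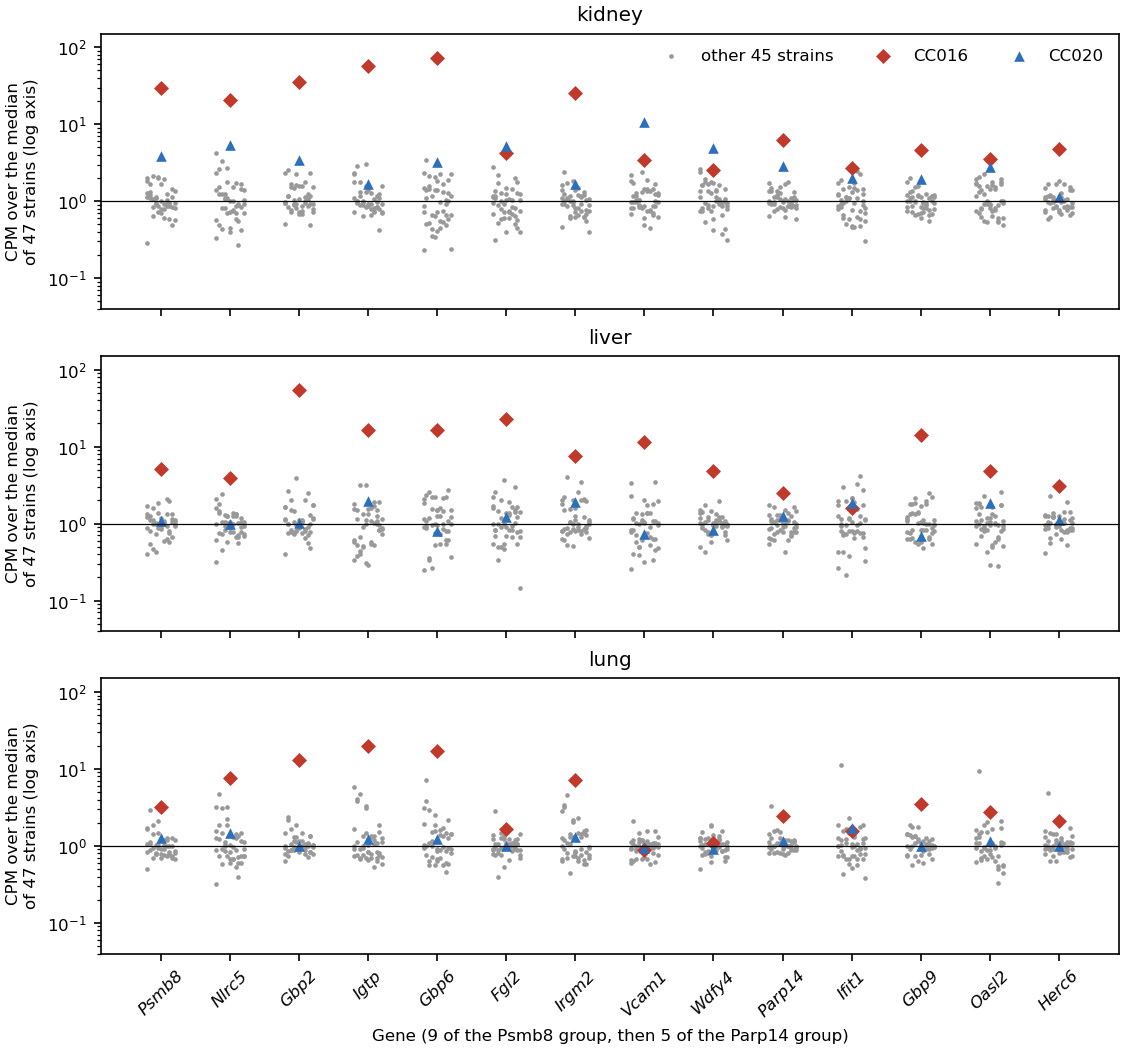
Level of the 9 genes of the Psmb8 group and the 5 genes of the Parp14 group (x axis) in kidney, liver and lung, as CPM divided by the median of the 47 strains (y axis, log), with CC016 and CC020 marked. CC016 is high in all 3 tissues for Gbp6 (246, 94.5 and 176 CPM), while CC020 ranks 4th or higher in kidney for 11 of the 14 genes and in liver only for Igtp and Oasl2.

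Genes of these groups also correlated between tissues. Of the Psmb8 group 5 of 9 genes correlated positively with liver and 7 of 9 with lung, and of the Parp14 group 5 of 5 with each. Oasl2, an interferon-induced oligoadenylate synthetase-like protein, had an r of 0.79 between kidney and liver (rho 0.80, permutation p = 1e-05 for both, q = 0.000624 over 8296 genes) and 0.73 between kidney and lung (rho 0.76, permutation p = 1e-05 for both, q = 0.000732 over 9736 genes). Without CC016 and CC020, its 2 farthest strains, the r was 0.76 and 0.72. Nlrc5 had an r of 0.84 with lung (rho 0.82, permutation p = 1e-05 for both, q = 0.000732, 0.82 without the same 2 strains) and 0.62 with liver (rho 0.57, permutation p = 1e-05 and 8e-05, q = 0.00138, 0.62 without them). A p of 1e-05 is the smallest that 100000 permutations can give.

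The 11 genes led by Alb, Cps1, Serpina3k and Apoa1 formed the group with the widest range of levels (mean rho 0.731), from -3.37 in CC061 to 4.16 in CC027. Alb encodes albumin, Cps1 the first enzyme of the urea cycle, Apoa1 the main protein of high-density lipoprotein and Mat1a the liver's methionine adenosyltransferase. Alb had 0.966 CPM in the lowest kidney, 34.8 at the median and 863 in CC027, and 281 CPM in the second highest strain. Without CC027, 6 of the 11 genes stayed together. Its median in liver was 44278 CPM. In that liver CC027 had 55740 CPM and ranked 7th. Of the 11 genes, 1 correlated positively with liver and 1 with lung, where 23.5% and 16.9% of all genes did. The level of the group had a rho of 0.463 with the share of Rn45s and of -0.470 with the counts outside Rn45s, Lars2 and Mir6236, so it tended to be higher in kidneys with fewer usable counts. The 6 hepatocyte markers outside the group summed to 188 CPM in CC027 against a median of 116 CPM, which ranked 18th, and their rho with the level of the group was 0.192. The part of library depth was not tested.

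The group of 10 genes led by Prox1, Lrrc66, Slc14a2 and Angpt2 (mean rho 0.588) was highest in CC032 (2.29) and next in CC011 (1.10). Slc14a2, the urea transporter of the inner medullary collecting duct, ran from 0.572 through 5.02 to 52.9 CPM in CC032, and Slc12a1, the sodium-potassium-chloride transporter of the thick ascending limb, from 12.4 through 35.2 to 133 CPM in the same kidney. The 9 inner medulla and thin limb markers outside the group summed to 1860 CPM there against a median of 571 CPM. Of all 10 on that list, 3 passed the filter, namely Slc14a2, Bcl3 and Slc5a3. Only 2 of the 10 averaged at least 5 CPM, and Slc14a2, in the group, is 1 of these. The sum outside the group therefore rested largely on 1 gene and does not show several markers rising together. Erythrocyte markers summed to 94.0 CPM against 33.9 CPM, but of these 6 only Slc4a1 passed the filter. Slc4a1 is also on the list of intercalated cell markers, which summed to 231 CPM in CC032 against a median of 146 CPM. Which part of the kidney was taken was not tested. None of 4 genes correlated positively with liver and none of 7 with lung.

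The group of 9 genes led by Slco1a1, Adh1, Hsd17b11 and Srd5a2 (mean rho 0.596) had graded levels, with the highest in CC040 (1.42), CC062 (1.39) and CC036 (1.38) and the lowest in CC004 (-1.19). Slco1a1 is an organic anion transporter of the brush border, Adh1 an alcohol dehydrogenase, Srd5a2 converts testosterone to dihydrotestosterone and Gusb is the lysosomal beta-glucuronidase. Slco1a1 ran from 221 through 811 to 2753 CPM in CC062, Adh1 from 270 through 510 to 1851 CPM in CC036, and Srd5a2 from 0.995 through 3.20 to 34.0 CPM in CC036. The summed level of the 15 proximal tubule markers, none of them in the group, had a rho of 0.766 with the level of the group. Kap, an abundant androgen-regulated gene, is among the 15 and makes up a large part of that sum. Its part in the correlation was not tested. One of 6 genes correlated positively with liver and 0 of 5 with lung.

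The remaining groups were small. Atn1, Rn45s, Setd1b, Lars2, Mir6236 and Zfp395 (mean rho 0.770) followed the share of Rn45s with a rho of 0.969, from -4.24 in CC001 to 2.16 in CC027, and 0 of 6 correlated positively with either tissue. Vaultrc5 and 4 small nucleolar RNA genes formed a group with levels up to 1.34 in CC016, and 0 of its 5 genes correlated positively with either tissue. The Vaultrc5 group was not found without CC016 or without CC020. Over the groups, the levels most alike were those of the Psmb8 and Parp14 groups (0.678), the Cybb and Col1a2 groups (0.674) and the Cybb and Psmb8 groups (0.673), and the Alb group had 0.485 with the Rn45s group.

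Strong correlations made up a larger share of the pairs of neighbouring genes than of distant ones. Among the 500 genes, 349 pairs of those with a position lay within 1 Mb, of which 30 (8.60%) had a rho of at least 0.6 and 3 one of -0.6 or lower, with a median of 0.102. Of 101552 pairs on different chromosomes 0.496% had a rho of at least 0.6. The pairs are not independent and no test was made. Of the 30, 12 joined genes of the histocompatibility region of chromosome 17 (H2 genes, Psmb8 and Tap2), such as H2-Aa and H2-Ab1 (0.807), and 3 joined the C1q genes. Others were duplicated genes that can share reads, such as Hspa1a and Hspa1b (0.888) and Ugt2b5 and Ugt2b37 (0.879). Aldh1a1 and its neighbour Aldh1a7, 49491 bases apart, had a rho of 0.871, and Hao2 and Hsd3b2, of peroxisomal oxidation and steroid synthesis, one of 0.703. Pdilt, Acsm1 and Crym, unrelated genes on chromosome 7, had a rho of 0.759 for Pdilt with Acsm1 and of 0.734 for Crym with Acsm1. In the opposite direction, Ugt1a9 and Ugt1a7c, alternative first exons of one glucuronosyltransferase locus, had -0.721.

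How far the variation was that of the kidney was asked by correlating each gene's rank inverse normal level in kidney with that in liver and lung of the same mice. With liver, 1948 of 8296 genes (23.5%) correlated positively and 40 (0.482%) negatively at q 0.1, with a median r of 0.19. With lung, 1641 of 9736 (16.9%) correlated positively and 48 (0.493%) negatively, with a median r of 0.15. Of the 500 most variable genes, 370 were tested with liver, where 165 (44.6%) correlated positively and 3 negatively (median r 0.29), and 401 with lung, where 149 (37.2%) correlated positively and 6 negatively (median r 0.24). The share of positive correlations was thus above that of all genes in both comparisons, and the larger part of the variable genes tested did not pass.

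Among the genes named for the largest correlations were some with near-identical copies. Sfi1, with several copies, had an r of 0.92 with lung (rho 0.91, permutation p = 1e-05 for both, q = 0.000732, 0.91 without the 2 farthest strains). Cox7c had an r of 0.87 with liver (rho 0.90, permutation p = 1e-05 for both, q = 0.000624) and Rpl37 one of 0.91 with lung (rho 0.92, permutation p = 1e-05 for both, q = 0.000732), and without the 2 farthest strains these were 0.86 and 0.90. The part of unique alignment, which depends on the sequence of each strain, in their variation was not tested. H2-T23, a nonclassical class I gene of a large family, had an r of 0.86 with liver (rho 0.85, permutation p = 1e-05 for both, q = 0.000624, 0.84 without the 2 farthest). Zbtb16, a transcription factor that is induced by glucocorticoids, had an r of 0.88 with lung (rho 0.89, permutation p = 1e-05 for both, q = 0.000732, 0.86 without the 2 farthest) and of 0.77 with liver (rho 0.79, permutation p = 1e-05 for both, q = 0.000624, 0.83 without them). It ran from 2.11 through 9.07 to 70.8 CPM in kidney, from 3.92 through 19.6 to 81.8 CPM in liver and from 11.8 through 105 to 595 CPM in lung, and CC015 was the highest strain in each.

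Whether a gene varied more in kidney was tested by comparing the absolute deviations of log2 CPM from the tissue median, with strain as a block, for genes averaging at least 10 CPM in each of the tissues compared (limma, Benjamini-Hochberg q 0.1). Against liver, 156 of 4269 genes (3.65%) varied more in kidney and 570 (13.4%) less. Against lung, 422 of 5437 (7.76%) varied more and 110 (2.02%) less. Over the 3980 genes in both tests, 59 varied more in kidney than in either tissue and 25 less. A count of 3 corresponded to up to 2.94 CPM in liver (CC033) and 1.87 CPM in lung (CC015), against 1.30 CPM in kidney. The part of library depth in these differences was not tested.

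Aldh1a1 varied more in kidney than in either. Its kidney range of 7.54 to 914 CPM stood beside 358 to 1749 CPM in liver and 433 to 2022 CPM in lung. The mean absolute deviation was 1.72 log2 units in kidney against 0.40 in liver (difference 1.32 ± 0.18 SE, limma adjusted p = 5.59e-07) and 0.35 in lung (difference 1.37 ± 0.16 SE, limma adjusted p = 4.27e-08). Odc1, ornithine decarboxylase of polyamine synthesis and a known androgen target in mouse kidney (chr12:17551679-17558308), ranged from 340 through 1196 to 5753 CPM in kidney, and between 22.7 and 78.7 CPM in liver. Its deviation was 0.75 in kidney against 0.30 in liver (difference 0.46 ± 0.08 SE, limma adjusted p = 4.38e-05) and 0.20 in lung (difference 0.56 ± 0.08 SE, limma adjusted p = 1.28e-05). Gusb, another androgen-responsive gene (chr5:130464881-130478919), ranged from 18.7 through 49.7 to 375 CPM in kidney and from 13.7 to 39.3 CPM in liver, with differences in deviation of 0.65 ± 0.11 SE against liver (limma adjusted p = 6.06e-05) and 0.70 ± 0.10 SE against lung (limma adjusted p = 9.49e-06).

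Kap, the androgen-regulated protein that is among the most abundant transcripts of the mouse kidney, varied less in kidney than in either tissue. It lay between 7043 and 28321 CPM in kidney, against 0.916 to 336 CPM in liver and 0.607 to 135 CPM in lung. The differences in deviation were -0.84 ± 0.16 SE against liver (limma adjusted p = 0.000153) and -0.90 ± 0.15 SE against lung (limma adjusted p = 5.18e-05). Ddah1, which degrades a methylated arginine that inhibits nitric oxide synthase, lay between 184 and 456 CPM in kidney and between 1.35 and 110 CPM in liver (difference -0.96 ± 0.12 SE, limma adjusted p = 2.69e-07), and between 11.6 and 96.0 CPM in lung (difference -0.30 ± 0.07 SE, limma adjusted p = 0.00173). Both genes had lower levels in the tissue where they varied more, so that counting error was larger there, and its part in the difference was not tested.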

How the data were processed

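Kidney, liver and lung of 47 CC strains were profiled by total RNA-seq after ribosomal depletion, with 50-base single-end reads and 1 male mouse per strain. The authors aligned reads with STAR 2.5.3a to pseudo-genomes and RefSeq pseudo-transcriptomes, which had been built per strain on mouse Build37 (mm9), kept uniquely aligned reads and quantified them with RSEM. The expected counts deposited for each gene are on the scale of reads. They were rounded, and the deposited TPM and FPKM (scaled by transcript length) were not used for the levels reported. Sequencing batches were not analysed here.

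Kidney libraries were scaled by TMM in edgeR 4.0.16 with genes over 1 CPM in at least 24 of 47 libraries. The members, gene lists and tests were chosen with earlier results of these data known. Genes were named by rank of CV (20 of at least 5 CPM, 10 of at least 100 CPM, and the 10 smallest), by rank in their co-varying group or gene list, and by rank in the tests between tissues. Other genes of a group or list are named without values, and the genes with 2 levels and those of neighbouring pairs were chosen after their values were seen. There were 20 lists of cell type markers and 21 of pathways, and the results of those that bear on a comparison are given. Results of some genes are not reported here.

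Rank inverse normal values (Blom offset 0.375) were correlated between tissues over 100000 permutations of strains, with Benjamini-Hochberg adjustment over all genes. R, rho and their p were computed for 148 gene and tissue pairs of named genes, of which a few are printed. Spread was tested with limma 3.58.1 (R 4.3.3, prior count of 1) with strain as a replicate block. The pairing of tissues comes from the labels and the design, since the libraries of a strain are from the same mouse. P-values measure the spread between these single mice. Gene coordinates are from the GENCODE vM1 gene annotation of NCBIM37 (mm9) for 89.9% of the genes that passed the filter. The other steps ran in Python 3.11.15 (scipy 1.17.1, numpy 2.4.6, matplotlib 3.10.9, pandas 2.3.3), and each test was checked on simulated data. Alternatives were the scaling (DESeq2 1.42.0 size factors, total counts), the low-count filter, the deposited TPM, other cuts, sets and thresholds, and leaving out strains. Leaving out CC016, CC020 or CC027 and leaving out Rn45s, Lars2 and Mir6236 were added after seeing the data.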

Additional observations from a re-analysis of the deposited data

How the results depend on the processing

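The count of genes with a CV over 0.5 (1376) depended most on scaling and filter: it was 3788 with total counts in place of TMM, 11342 with no filter on low counts and 402 when 1 CPM was required in all 47 libraries. Of the 20 most variable genes, 12 were shared with total counts, 8 with the filter on all libraries, 11 without the highest strain of each gene and 13 without CC016. With total counts 6 of the 10 most variable abundant genes and 0 of the 10 least variable were shared, and with the counting part subtracted 0 of the least variable were. The 11 groups with 111 genes were 7 with 71 at a height of 0.4, 4 with 52 from the 250 most variable genes and 18 with 195 from the 1000 most variable. Over 10 alternatives, the Thrsp, Cybb, Alb and Psmb8 groups kept over 1 gene in 2 together in all 10, and the Vaultrc5 group did so in 3. The Cybb, Psmb8 and Parp14 groups were not separate throughout: 2 or more genes of each of at least 2 of them shared a group under 6 of the 10 alternatives, in 1 group of 37 genes at a height of 0.6, in groups of 31 (with the Col1a2 group) and 26 by Pearson r, of 11 from 1000 genes, of 6 by complete linkage, of 27 without CC016 and of 12 without CC027.

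At q 0.01, correlations with liver numbered 684 positive and 0 negative and those with lung 575 and 4. Genes that varied more and less in kidney than in liver (156 and 570) numbered 73 and 189 at q 0.01, 54 and 123 at 50 CPM, and 327 and 1468 with the filter on 24 libraries. Those against lung (422 and 110) numbered 151 and 36, 134 and 26, and 1097 and 332. Without the replicate block, which pairs tissues by mouse, they were 135 and 487 against liver and 367 and 93 against lung. Among single genes named, none reversed, and over all of these genes and alternatives 90 correlations and 46 differences in spread lost their call while 28 and 16 gained one. The cause of these shifts was not tested. Depth limits genes near 1 CPM, and 1 mouse per strain leaves no estimate of variation within a strain.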
